A study of Mus musculus with 12 samples.

Results

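Alloreactive effector T cells of the CD8 and CD4 lineages were compared with each other, that is, the T cells that had met dendritic cells of a foreign mouse strain in IL-2 alone and had stayed negative for Foxp3. The members are samples: 3 arrays of CD8 control cells and 3 arrays of CD4 control cells, or 6 of the 12 arrays of the series, taken by their titles and by the labels for IL-2 and for absent Foxp3. The resting T cells came from C57BL6-Foxp3-GFP mice, whose green fluorescent protein reports Foxp3. Each well held 200000 T cells and 20000 CD11c dendritic cells of BALB/c mice, with IL-2 at 5 ng/mL. The CD8 cultures lasted 4 days and the CD4 cultures 5 days, after which cells were pooled, stained for CD4, CD8 and CD25 and sorted as GFP-negative cells. The other 6 arrays are the Foxp3-positive cells of both lineages from wells that also held TGF-β (5 ng/mL) and retinoic acid (40 nM), and they enter here only as a second look at the lineage difference.

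A T cell that meets foreign major histocompatibility molecules divides and becomes an effector cell. CD8 cells recognise class I molecules and are known for killing with perforin and granzymes, while CD4 cells recognise class II molecules and are known for the cytokines by which helper subsets are told apart. Type 1 helper cells make interferon-γ, type 2 helper cells make IL-4, IL-5 and IL-13 under the factor GATA3, and type I interferons switch on antiviral genes in nearly all cells.

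All values are log2 expression levels, and differences are CD8 minus CD4, so that positive values are higher in CD8 cells. Each difference carries its standard error and adjusted p from a limma fit, and means with the SD over 3 arrays, and arrays in the order of replicates A, B and C. A gene passed at an adjusted p under 0.05. The median gene lay at 5.6, and no background level was at hand, so a fold against a level near or under 5.6 is a ratio of array signal. The labels do not say that replicates came from separate cultures or animals, so the p-values reflect no more than how far these samples lie apart, and that may be technical. Cell type and length of culture (4 against 5 days) cannot be told apart in any result below, and in RNA of whole samples, fewer cells of a type and less RNA per cell cannot be told apart either. The families of granzymes, Gbp, Akr1c, Ly6c, Oas, Ifit and killer lectin-like receptor genes hold near copies that probes can share, so single members of these families are uncertain.

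The sorted cells had the genes of their labels. Cd4 stood at 4.90, 5.17 and 6.0 in the CD8 arrays and 12.27, 12.45 and 12.22 in the CD4 arrays (difference -6.95 ± 0.22, adjusted p = 6.28e-10). Cd8a stood at 11.78, 11.72 and 11.87 in the CD8 arrays and 6.68, 7.12 and 5.72 in the CD4 arrays, and Cd8b1, the other coreceptor chain, at 11.84, 11.85 and 11.91 in the CD8 arrays and 7.62, 8.02 and 7.53 in the CD4 arrays. The groups were far apart for all 3 genes. In the CD4 arrays the mean levels of Cd8b1 (7.72 ± 0.26) and Cd8a (6.51 ± 0.72) still lay above the median gene, and the source of that signal was not tested. Foxp3 was at 5.41, 5.23 and 6.33 in the CD8 arrays and 5.69, 6.07 and 5.52 in the CD4 arrays, overlapping and near the median gene in both groups (difference -0.10 ± 0.23, adjusted p = 0.831). Without CD8 control replicate C, the highest of its group, the difference was -0.44 and passed (adjusted p = 0.0466).

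Of 22180 genes, 4636 (20.9%) differed between CD8 and CD4 control cells, 2692 (12.1%) higher in CD8 and 1944 (8.76%) higher in CD4 cells. The larger differences lay on the CD4 side. At least 2-fold differences numbered 192 (0.866%) toward CD8 and 460 (2.07%) toward CD4, at least 4-fold ones 19 and 128, and at least 8-fold ones 5 and 45. The arrays of the groups did not overlap for 7481 genes (33.7%), with CD8 above for 18.3% of all genes and CD4 above for 15.4%. These shares are the background for the counts within gene lists that follow, and the median difference over all genes was 0.004. The lists were chosen with earlier results of these data known, so their counts describe the listed genes only.

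**Figure D1:**
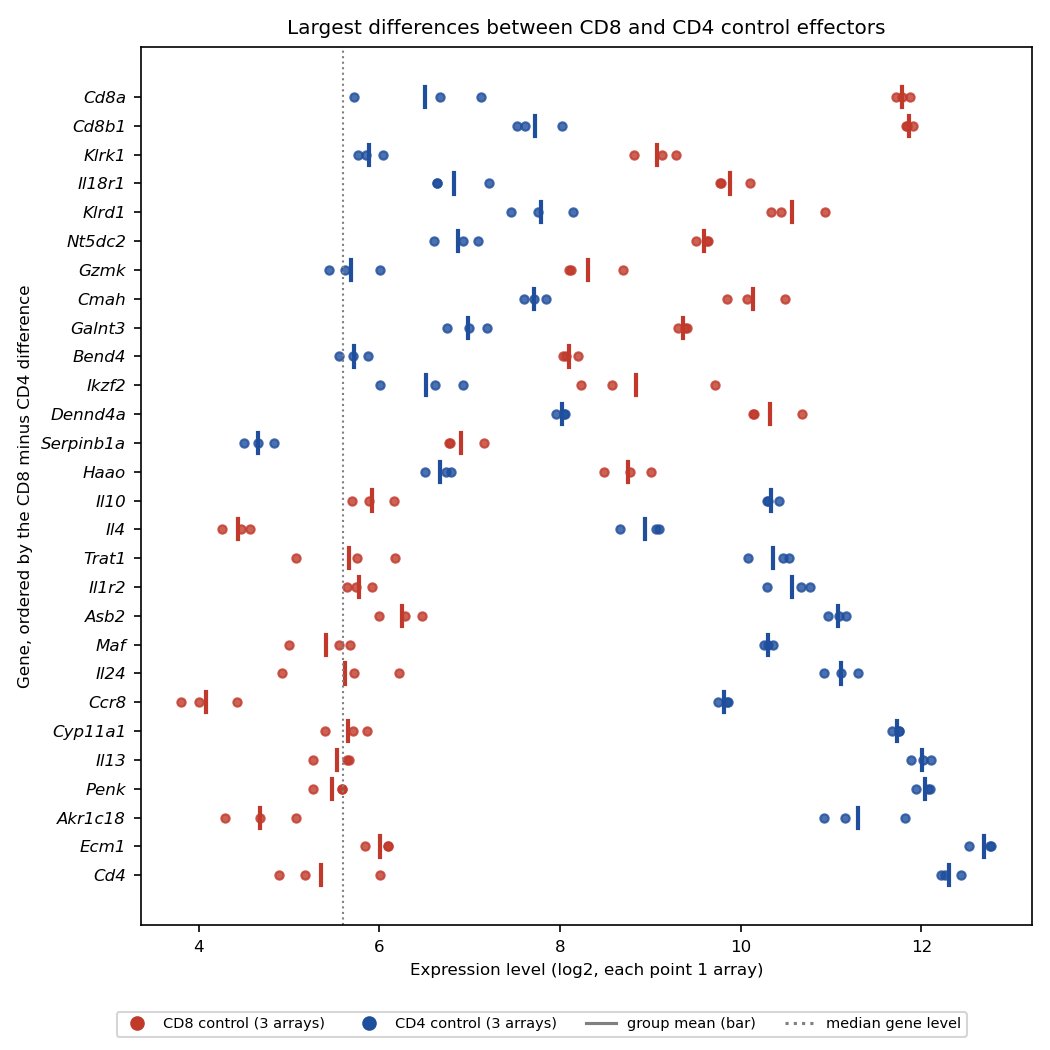
Log2 level (x axis) of the 14 genes with the largest differences toward CD8 and the 14 toward CD4 (y axis), with 1 point per array, a bar at each group mean and a dotted line at the median gene level of 5.6. CD8 arrays are red and CD4 arrays blue. Genes were taken only if they passed, if the arrays of the groups did not overlap and if the higher group's mean reached the median gene level. The absence of overlap is thus a condition of the choice. In CD8 cells most of the genes high in CD4 cells lie near the dotted line.

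Markers of other cells were mostly level between the groups. Of 16 dendritic cell markers, 2 were higher in CD8 cells, the integrin Itgax (difference 1.58 ± 0.13, adjusted p = 3.64e-06) and the costimulatory ligand Cd80 (difference 1.09 ± 0.15, adjusted p = 0.000155), and 1, the chemokine Ccl22, was higher in CD4 cells (difference -1.57 ± 0.30, adjusted p = 0.00196). The summed log2 level of the 16 ranged from 103.26 to 104.22 in CD8 arrays and from 104.19 to 104.74 in CD4 arrays. H2-Ab1, a class II chain, stood at 9.49 ± 0.48 in CD8 and 10.00 ± 0.30 in CD4 cells, and 10 of the 16 dendritic markers lay above the median gene in CD8 and 9 in CD4 cells, with Flt3, Zbtb46, Xcr1 and Siglech among those under it in both. Cd74, the class II invariant chain, shared its cluster with Mir5107, which was fitted apart. That cluster was higher in CD4 cells, at 6.51 ± 0.29 in CD8 and 8.27 ± 0.13 in CD4 cells (difference -1.76 ± 0.19, adjusted p = 0.0001015). None of the 7 NK and γδ T cell markers and none of 4 red cell and platelet markers passed. Of 11 B cell markers Cd79b (difference 1.31 ± 0.15, adjusted p = 5.23e-05) and Ighm (difference 1.03 ± 0.10, adjusted p = 8.14e-06) were higher in CD8 cells, with the B cell genes Ms4a1, Pax5 and Cd79a under the median gene. The 7 clusters of Ighm ranged in difference from -1.29 to 1.50. Immunoglobulin clusters that carry several symbols, fitted apart, lay on both sides. Toward CD4 were Igkv4-53 with Igkj1 and Igkv6-23 (-3.53) and Igkv9-124 with Igkv4-70 (-2.11). Clusters that shared Ighm with other segments differed by 1.48, 0.59 and -0.46. Of 13 macrophage and monocyte markers C1qa was higher in CD8 and Adgre1 in CD4 cells, of 10 mast cell and basophil markers Kit was higher in CD8 cells (difference 1.83 ± 0.31, adjusted p = 0.000904), and of 10 neutrophil markers Ly6g (difference -4.02 ± 0.17, adjusted p = 6.41e-09) and Cxcr2 were higher in CD4 cells. C1qa and Cxcr2 lost their calls when single arrays were left out, C1qa (adjusted p from 0.0722 to 0.159 without CD8 control replicates A or B or CD4 control replicates B or C) and Cxcr2 (adjusted p from 0.0782 to 0.102 without CD8 control replicates A or C or CD4 control replicate C). The neutrophil granule genes Elane, Mpo, Camp and S100a8 lay under the median gene in all arrays. The summed level in the CD8 and then the CD4 arrays ranged from 59.34 to 61.81 and from 58.75 to 59.71 for B cells, and from 67.7 to 68.88 and from 68.77 to 70.32 for macrophages and monocytes. It ranged from 37.44 to 38.75 and from 36.86 to 40.22 for NK and γδ T cells, from 47.68 to 48.25 and from 43.37 to 48.09 for mast cells and basophils, and from 18.8 to 19.37 and from 18.62 to 19.77 for red cells and platelets. For neutrophils it ranged from 43.77 to 44.92 and from 49.02 to 49.89. No marker gene was at 0 on this scale. The part of these markers in the results below was not tested.

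Beside the coreceptors, the largest differences toward CD8 included killer lectin-like and cytokine receptors and a granzyme. Klrk1, which encodes the activating receptor NKG2D, was at 8.82, 9.13 and 9.28 in the CD8 arrays and 5.86, 6.04 and 5.76 in the CD4 arrays (difference 3.19 ± 0.30, adjusted p = 1.07e-05). Il18r1, the ligand-binding chain of the IL-18 receptor, was at 9.78, 9.78 and 10.11 in the CD8 arrays and 6.64, 7.21 and 6.64 in the CD4 arrays (difference 3.06 ± 0.16, adjusted p = 5.97e-08). Klrd1, the CD94 chain that pairs with NKG2 receptors, was at 10.34, 10.44 and 10.93 in the CD8 arrays and 7.76, 8.14 and 7.46 in the CD4 arrays (difference 2.79 ± 0.20, adjusted p = 7.11e-07). In all 3 genes the lowest CD8 array lay above the highest CD4 array by more than the spread within either group. Gzmk, the gene of granzyme K, was at 8.12, 8.10 and 8.70 in the CD8 arrays and 5.45, 6.01 and 5.62 in the CD4 arrays (difference 2.62 ± 0.20, adjusted p = 1.55e-06). Ikzf2, which encodes the Ikaros family factor Helios, varied more, at 8.58, 8.23 and 9.71 in the CD8 arrays and 6.61, 6.93 and 6.01 in the CD4 arrays (difference 2.33 ± 0.38, adjusted p = 0.000729), with CD8 replicate C highest. The enzymes Cmah, which hydroxylates sialic acid precursors (2.42 ± 0.19), Galnt3, which starts O-linked glycans (2.39 ± 0.13), and Haao of the kynurenine path (2.08 ± 0.14) were also among the 14 largest toward CD8. So were Nt5dc2 (2.72 ± 0.12), Bend4 (2.38 ± 0.13), Dennd4a (2.30 ± 0.13) and the serine protease inhibitor gene Serpinb1a (2.24 ± 0.27). Bend4 rested on its brighter cluster, since its other cluster differed by 0.28 and did not pass (adjusted p = 0.22 with the first cluster in place of the brightest).

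Of 12 genes of the CD8 lineage list, 10 were higher in CD8 cells and 1 in CD4 cells, with a median difference of 1.86. Crtam, an adhesion receptor of cytotoxic cells (difference 2.00 ± 0.20, adjusted p = 1.37e-05), Xcl1, a chemokine for cross-presenting dendritic cells (difference 1.42 ± 0.17, adjusted p = 5.85e-05), and Nkg7, a granule membrane protein (difference 0.89 ± 0.14, adjusted p = 0.000528), were on the CD8 side. Itgae, the αE integrin chain CD103, was higher in CD4 control cells, at 5.31, 5.00 and 5.46 in the CD8 arrays and 6.21, 6.25 and 6.38 in the CD4 arrays (difference -1.02 ± 0.12, adjusted p = 6.45e-05). The CD8 lineage factor Runx3 was at 10.35, 10.08 and 10.14 in the CD8 arrays and 10.05, 10.17 and 10.16 in the CD4 arrays, overlapping and well above the median gene in both groups (difference 0.06 ± 0.17, adjusted p = 0.865). Of 10 genes of the CD4 lineage list, 8 were higher in CD4 and 2 in CD8 cells, with a median of -2.13. Cd40lg, the ligand by which helper cells license dendritic and B cells, was at 4.25, 4.31 and 4.30 in the CD8 arrays and 8.46, 8.46 and 8.16 in the CD4 arrays (difference -4.08 ± 0.13, adjusted p = 4.8e-10). Zbtb7b, which encodes the CD4 lineage factor ThPOK, differed less (difference -0.51 ± 0.09, adjusted p = 0.0016). The 2 exceptions were the follicular homing receptor Cxcr5 (difference 0.72 ± 0.23, adjusted p = 0.0457) and the factor Tox (difference 0.86 ± 0.17, adjusted p = 0.00249). Both lay near or under the median gene in CD4 cells, and Cxcr5 lost its call with single arrays left out (adjusted p from 0.0539 to 0.163 without CD8 control replicates A or C or CD4 control replicates A, B or C).

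CD4 control cells had much higher levels of the type 2 helper genes. Of 23 measured genes of the type 2 list, 21 were higher in CD4 cells, none in CD8 cells, and the median difference was -3.38. All 21 kept their call when any 1 control array was left out. The list, which includes Ecm1, Penk, Cyp11a1 and Ccr8, was chosen with earlier results of these data known. Its count and median are therefore partly set by the choice. Il13, the cytokine of mucus and airway responses, was at 5.66, 5.65 and 5.27 in the CD8 arrays and 12.11, 11.89 and 12.02 in the CD4 arrays, a difference of 89.3-fold (difference -6.48 ± 0.15, adjusted p = 2.71e-11). Il4 was at 4.26, 4.47 and 4.57 in the CD8 arrays and 9.10, 8.66 and 9.06 in the CD4 arrays (difference -4.51 ± 0.15, adjusted p = 7.98e-10). Il5, the eosinophil cytokine, was at 5.02, 5.03 and 4.83 in the CD8 arrays and 8.25, 8.22 and 9.18 in the CD4 arrays (difference -3.59 ± 0.21, adjusted p = 1.56e-07). For these 3 cytokines all CD8 arrays lay under the median gene or close to it, and every CD4 array lay at least 2-fold above every CD8 array. Il24 (difference -5.49 ± 0.25, adjusted p = 1.65e-08), Il10 (difference -4.42 ± 0.30, adjusted p = 4.93e-07), the growth factor Csf2 (difference -3.38 ± 0.15, adjusted p = 1.42e-08), Il3 (difference -1.96 ± 0.13, adjusted p = 5.56e-07) and Il9 (difference -1.31 ± 0.16, adjusted p = 6.21e-05) were on the same side. Il31 did not pass (difference -0.18 ± 0.12, adjusted p = 0.373).

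Most receptor and regulator genes of the type 2 list were higher in CD4 cells too. Gata3, the factor of type 2 cells, was at 8.97, 8.66 and 8.73 in the CD8 arrays and 10.80, 10.63 and 10.87 in the CD4 arrays (difference -1.98 ± 0.12, adjusted p = 1.74e-07). Il4ra, the receptor chain shared by IL-4 and IL-13, was at 9.76, 9.66 and 9.50 in the CD8 arrays and 12.01, 11.91 and 12.07 in the CD4 arrays (difference -2.35 ± 0.10, adjusted p = 7.8e-09). In CD8 cells Gata3 and Il4ra lay well above the median gene and Il4, Il5 and Il13 did not. Maf, a factor that acts at the Il4 and Il10 genes, was at 5.55, 5.68 and 5.01 in the CD8 arrays and 10.26, 10.31 and 10.36 in the CD4 arrays, and its 2 clusters differed by -4.90 and -4.06. Pparg (-1.42 ± 0.19), Nfil3 (-1.29 ± 0.18) and Il17rb, a chain of the IL-25 receptor (-0.93 ± 0.15), were higher in CD4 cells, and Stat6, the signal transducer of IL-4, was level at 9.81 ± 0.11 and 9.81 ± 0.13 (difference 0.00 ± 0.10, adjusted p = 0.994).

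Several genes that encode no cytokine stood among the largest differences toward CD4. Ecm1, Penk, Cyp11a1 and Epas1 among them are members of the type 2 list counted above. Ecm1, an extracellular matrix protein that type 2 cells secrete, was at 5.85, 6.09 and 6.09 in the CD8 arrays and 12.53, 12.78 and 12.77 in the CD4 arrays (difference -6.68 ± 0.14, adjusted p = 2.25e-11). Penk, the precursor of the enkephalin peptides, was at 5.58, 5.27 and 5.59 in the CD8 arrays and 12.08, 12.10 and 11.95 in the CD4 arrays (difference -6.56 ± 0.15, adjusted p = 2.71e-11). Cyp11a1, the side-chain cleavage enzyme that makes pregnenolone, was at 5.71, 5.86 and 5.40 in the CD8 arrays and 11.75, 11.67 and 11.75 in the CD4 arrays (difference -6.07 ± 0.11, adjusted p = 3.05e-12), and its 2 clusters differed by -6.07 and -2.12. For each of the 3 genes the CD4 arrays spanned less than 1 log2 unit and stood far above all CD8 arrays. Akr1c18, which reduces progesterone, was at 5.08, 4.29 and 4.68 in the CD8 arrays and 11.16, 10.92 and 11.83 in the CD4 arrays (difference -6.62 ± 0.26, adjusted p = 3.34e-09). Asb2 (-4.82 ± 0.16), a ubiquitin ligase subunit, Il1r2 (-4.80 ± 0.14), the decoy IL-1 receptor, Trat1 (-4.70 ± 0.29), an adaptor of the T cell receptor, and Epas1 (-4.18 ± 0.14), the hypoxia factor HIF-2α, were further genes of this kind.

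The difference could be set against the genes next to the cytokine genes. On chromosome 11 the protein-coding genes from Kif3a to Irf1 stand in the order Kif3a, Il4, Il13, Rad50, Il5 and Irf1, by the RefSeq table of assembly GRCm38.p6. All 6 were higher in CD4 cells, Kif3a (-1.35 ± 0.13), Il4 (-4.51 ± 0.15), Il13 (-6.48 ± 0.15), Rad50 (-0.47 ± 0.10), Il5 (-3.59 ± 0.21) and Irf1 (-1.26 ± 0.13). The 3 cytokine genes differed far more than the neighbours between and beside them. On chromosome 1 the run from Pigr to Mapkapk2 held Fcmr, Il24, Il20, Il19 and Il10. Il24 (-5.49 ± 0.25) and Il10 (-4.42 ± 0.30) differed most, Il19 (-0.90 ± 0.10) and Mapkapk2 (-0.83 ± 0.09) differed less, and Pigr, Fcmr and Il20 did not pass (adjusted p from 0.156 to 0.401). Il20 passed without CD4 control replicate B (adjusted p = 0.0336).

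Type I interferon-stimulated genes, a set of antiviral genes, were higher in CD4 control cells as a group. Of 38 measured members 34 were higher in CD4 and 1 in CD8 cells, with a median difference of -1.51. The median level of the list was 7.53, 7.38 and 7.43 in the CD8 arrays and 9.44, 9.47 and 8.96 in the CD4 arrays, so CD4 replicate C lay lowest in its group and still above all CD8 arrays. With any 1 control array left out, 33 to 34 members passed toward CD4.

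The difference held for antiviral effectors, sensors and factors. Isg15, a ubiquitin-like modifier, was at 5.94, 5.85 and 5.48 in the CD8 arrays and 7.68, 7.73 and 7.80 in the CD4 arrays (difference -1.98 ± 0.14, adjusted p = 5.65e-07). Oas2, one of the synthetases that turn on RNase L, was at 5.86, 6.05 and 5.67 in the CD8 arrays and 10.12, 10.39 and 9.42 in the CD4 arrays (difference -4.12 ± 0.20, adjusted p = 2.45e-08). Usp18, the enzyme that removes Isg15 and restrains the receptor, was at 6.22, 6.41 and 5.78 in the CD8 arrays and 9.32, 9.15 and 8.29 in the CD4 arrays (difference -2.78 ± 0.23, adjusted p = 2.65e-06). In these genes the CD4 arrays lay well above the CD8 arrays without overlap. The RNA sensors Ifih1 (-2.18 ± 0.12) and Ddx58 (-1.40 ± 0.12), the DNA sensor family member Ifi204 (-3.57 ± 0.36), the nucleic acid sensor Zbp1 (-2.35 ± 0.12) and the GTPases Mx1 (-1.40 ± 0.18) and Mx2 (-2.52 ± 0.21) were higher in CD4 cells. So were the transcription factors Stat2 (-1.89 ± 0.14), Irf7 (-1.75 ± 0.19) and Irf9 (-1.21 ± 0.12). Clusters that carry several symbols, and so were fitted apart, differed in the same direction, Oas1a with Oas1g by -2.54 and Ifi27l2a with Ifi27l2b by -2.88.

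The members outside this pattern were few. Ifit3 (difference 0.17 ± 0.12, adjusted p = 0.394), Ifit2 (difference -0.27 ± 0.14, adjusted p = 0.238) and Sp100 (difference -0.16 ± 0.10, adjusted p = 0.328) did not pass, and Phf11b was higher in CD8 cells (difference 0.55 ± 0.14, adjusted p = 0.0132), a call that was lost when 1 array was left out (adjusted p = 0.0628 without CD4 control replicate C). Samd9l, the smallest difference among the 34, lost its call with single arrays left out (adjusted p from 0.0601 to 0.145 without CD8 control replicates A or B or CD4 control replicates A, B or C). Ifit1 was at 6.09, 6.20 and 5.80 in the CD8 arrays and 8.65, 9.22 and 7.96 in the CD4 arrays (difference -2.58 ± 0.25, adjusted p = 1.12e-05), while Ifit3 was at 6.13, 6.10 and 5.85 in the CD8 arrays and 5.99, 5.68 and 5.90 in the CD4 arrays. The CD4 arrays of Ifit1 stood clear of the CD8 arrays, and those of Ifit3 did not.

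The upstream sequences of 4 interferon-responsive genes are shown because the letters of the interferon-stimulated response element can be read in them, in 3 genes that differed and in 1 that did not pass. Irgm1, a GTPase of the interferon-γ list, differed by -1.73. The motif searched, on either strand, was GAAA, any 2 bases and GAAA again, which on the other strand reads TTTC, any 2 bases and TTTC, in RefSeq windows of 250 bases before to 50 bases after a start site (GRCm38.p6). Matches are in capitals, overlapping matches run together, and all stretches read 5′ to 3′ in the direction of the gene. Isg15 (chr4:156200850-156200921, minus strand) holds 3 overlapping matches that begin 78 to 66 bases before the start site, Ifit1 (chr19:34640760-34640838, plus strand) 2 matches at 104 and 85, Ifit3 (chr19:34583348-34583441, plus strand) 2 matches at 156 and 122, and Irgm1 (chr11:48871421-48871475, minus strand) 2 overlapping matches at 30 and 24.
Isg15: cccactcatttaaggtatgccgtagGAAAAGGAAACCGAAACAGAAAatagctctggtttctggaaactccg
Ifit1: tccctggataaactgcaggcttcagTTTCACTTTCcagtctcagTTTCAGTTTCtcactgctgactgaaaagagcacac
Ifit3: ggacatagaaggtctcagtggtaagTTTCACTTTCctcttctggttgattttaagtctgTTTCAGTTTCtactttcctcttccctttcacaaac
Irgm1: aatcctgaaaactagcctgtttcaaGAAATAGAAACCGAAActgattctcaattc

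The motif stood in the window of 3.99% of the 27025 genes of the promoter table. It stood in 14 of the 30 type I list genes that the table held (46.7%) and in 11 of the 14 matched genes of the interferon-γ list described next (78.6%). Among measured type I list genes, 11 of the 13 with the motif and 12 of the 14 without it were higher in CD4 cells, with median differences of -1.56 and -1.07. Ifit1 and Ifit3 both hold 2 matches with levels that differed in the first and did not pass in the second. A match is a run of letters and says nothing of binding in these cells.

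Genes of the interferon-γ response followed the type I genes. Of 18 measured GTPases and factors 14 were higher in CD4 cells and none in CD8 cells, with a median difference of -1.21. Iigp1, an immunity-related GTPase, was at 6.20, 6.74 and 5.44 in the CD8 arrays and 9.82, 10.04 and 9.39 in the CD4 arrays (difference -3.62 ± 0.31, adjusted p = 3.94e-06). Among the guanylate-binding proteins Gbp11 (-3.53 ± 0.23), Gbp9 (-2.46 ± 0.24) and Gbp8 (-2.10 ± 0.24) differed most, and Gbp3 did not pass (difference -0.21 ± 0.12, adjusted p = 0.267) except without CD4 control replicate C (adjusted p = 0.0472). Gbp7 lost its call with single arrays left out (adjusted p from 0.0748 to 0.149 without CD8 control replicates A or C or CD4 control replicates A or B). The factor Irf1 was at 8.56, 8.59 and 8.62 in the CD8 arrays and 9.80, 10.01 and 9.72 in the CD4 arrays (difference -1.26 ± 0.13, adjusted p = 2.41e-05), whereas Irf8 did not pass (difference 0.14 ± 0.12, adjusted p = 0.499). The chemokines Cxcl9 and Cxcl10 lay under the median gene in both groups and did not pass.

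Class I antigen presentation differed less. Of 16 genes 8 were higher in CD4 cells and none in CD8 cells, with a median of -0.33, and 5 to 7 passed with 1 control array left out, the fewest without CD8 replicate A, CD4 replicate A or CD4 replicate B. The non-classical class I gene H2-T23 was at 8.45, 8.59 and 8.93 in the CD8 arrays and 9.64, 9.62 and 9.67 in the CD4 arrays (difference -0.98 ± 0.12, adjusted p = 5.94e-05). The peptide transporter genes Tap1 (-0.69 ± 0.13) and Tap2 (-0.61 ± 0.09) and the loading chaperone Tapbp (-0.72 ± 0.09) were higher in CD4 cells. Calls of Psmb10, Nlrc5 and Calr were lost with single arrays left out, Psmb10 (adjusted p from 0.077 to 0.115 without CD8 control replicates A or C or CD4 control replicates A or B), Nlrc5 (adjusted p from 0.0709 to 0.138 without CD8 control replicates A or B or CD4 control replicates A or B) and Calr (adjusted p from 0.0678 to 0.151 without CD8 control replicates A or C or CD4 control replicates A, B or C). The light chain B2m, near the top of the scale in both groups at 13.46 ± 0.05 and 13.64 ± 0.05, did not pass (difference -0.18 ± 0.08, adjusted p = 0.144).

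**Figure D2:**
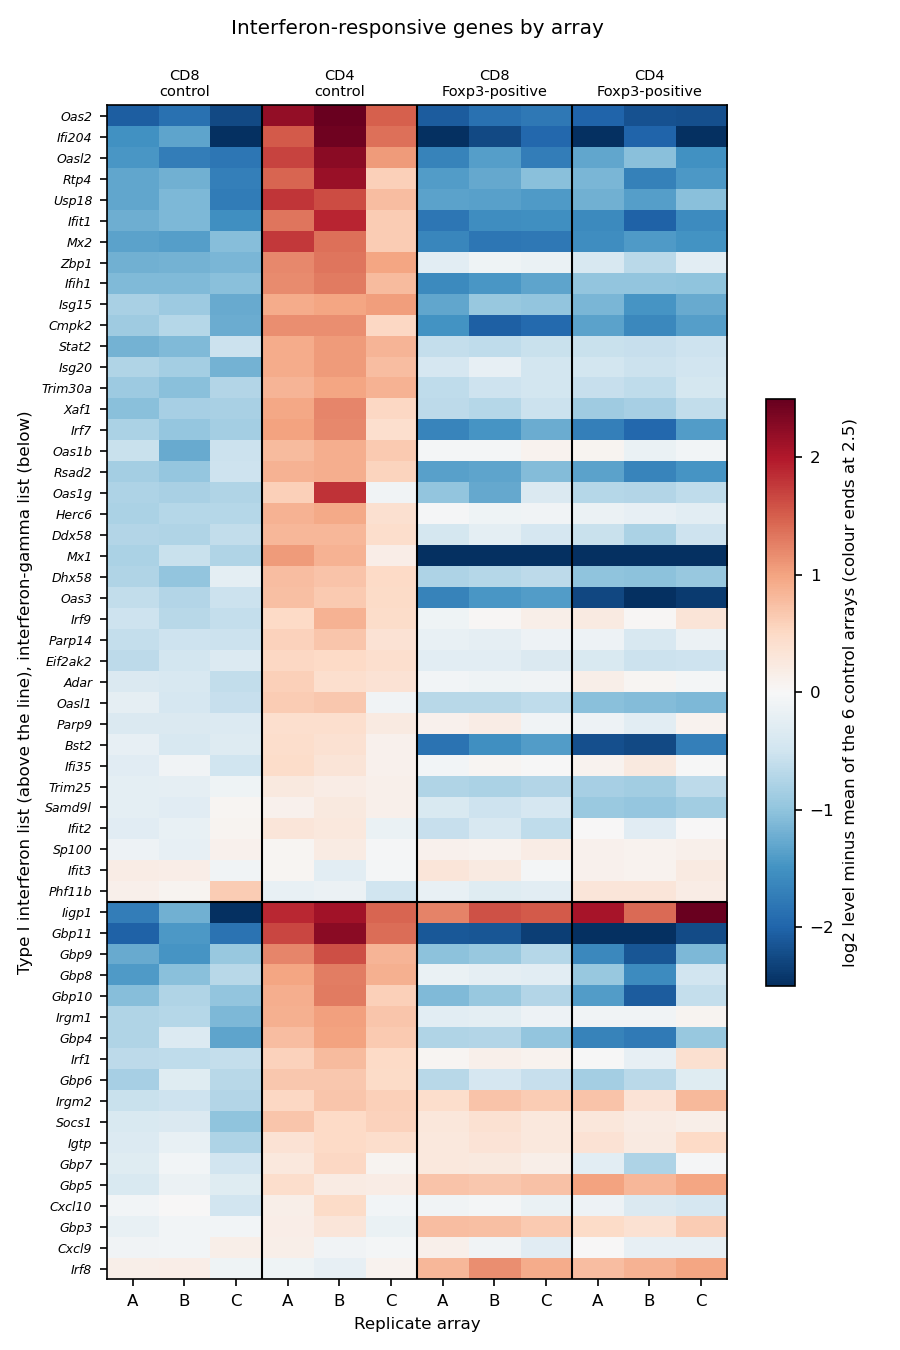
Log2 level minus the mean of the 6 control arrays (colour) for the type I interferon list (above the line) and the interferon-γ list (below it), one row per gene and 1 column per array, for CD8 control, CD4 control, CD8 Foxp3-positive and CD4 Foxp3-positive replicates A to C. Within the controls most upper rows are low in CD8 and high in CD4 arrays, with CD4 replicate C palest in most rows, and the median difference between the Foxp3-positive groups is 0.10 in the upper list.

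The type 1 helper genes were divided between the lineages. Of 12 measured genes 6 were higher in CD8 and 4 in CD4 cells. Ifng, the gene of interferon-γ, was higher in CD4 cells, at 6.54, 6.81 and 6.55 in the CD8 arrays and 8.66, 8.29 and 7.46 in the CD4 arrays (difference -1.50 ± 0.25, adjusted p = 0.000891). All CD4 arrays lay above all CD8 arrays. The receptor chain Ifngr2 (-1.77 ± 0.14), the IL-12 receptor chain Il12rb1 (-1.74 ± 0.15) and the factor Hlx (-0.83 ± 0.09) were also higher in CD4 cells. On the CD8 side stood both chains of the IL-18 receptor, Il18r1 and Il18rap (difference 1.26 ± 0.18, adjusted p = 0.000236), the chemokine receptor Cxcr3 (difference 1.11 ± 0.18, adjusted p = 0.00076) and Ifngr1 (difference 0.57 ± 0.10, adjusted p = 0.00118).

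The T-box factors of effector cells differed little. Tbx21, which encodes T-bet, was at 8.85, 9.20 and 8.67 in the CD8 arrays and 8.29, 7.92 and 8.45 in the CD4 arrays (difference 0.69 ± 0.19, adjusted p = 0.0198), and Eomes at 8.96, 9.27 and 8.55 in the CD8 arrays and 7.98, 8.45 and 8.12 in the CD4 arrays (difference 0.74 ± 0.22, adjusted p = 0.0315). The arrays did not overlap, but both calls were lost with single arrays left out, Tbx21 (adjusted p from 0.0874 to 0.0935 without CD8 control replicate B or CD4 control replicate B) and Eomes (adjusted p from 0.0861 to 0.13 without CD8 control replicates A or B or CD4 control replicates A or C). Stat4, the signal transducer of IL-12, was at 11.71 ± 0.20 in CD8 and 11.55 ± 0.15 in CD4 cells and did not pass (difference 0.16 ± 0.12, adjusted p = 0.414).

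Cytotoxic granule genes did not lie on 1 side. Of 25 measured genes 8 were higher in CD8 and 6 in CD4 cells, with a median of -0.04. With 1 control array left out, 3 to 5 passed toward CD4, the fewest without CD4 replicate A. Gzmb, the gene of granzyme B, was at 13.34, 13.25 and 13.04 in the CD8 arrays and 13.22, 13.27 and 13.25 in the CD4 arrays, close to the top of the scale in both groups (difference -0.04 ± 0.39, adjusted p = 0.969). Its standard error reflects the CD4 Foxp3-positive arrays (SD 1.16) more than the CD8 and CD4 controls (SD 0.16 and 0.02). Gzma, the gene of granzyme A, was higher in CD4 cells, at 11.08, 11.19 and 10.35 in the CD8 arrays and 12.78, 13.04 and 12.81 in the CD4 arrays (difference -2.0 ± 0.37, adjusted p = 0.00163), and Gzmg stood at 4.05, 4.70 and 3.97 in the CD8 arrays and 7.07, 8.11 and 7.11 in the CD4 arrays (difference -3.19 ± 0.25, adjusted p = 2.1e-06). Gzmk lay on the CD8 side, as given above, so different granzymes were high in different lineages.

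The pore-forming gene Prf1 was at 10.30, 10.61 and 9.42 in the CD8 arrays and 9.14, 9.63 and 8.51 in the CD4 arrays (difference 1.01 ± 0.29, adjusted p = 0.0227). Its arrays overlapped, and its call was lost with single arrays left out (adjusted p from 0.0523 to 0.0994 without CD8 control replicates A or B or CD4 control replicates A or C). Serpinb9, which inhibits granzyme B, was at 9.24, 9.45 and 8.84 in the CD8 arrays and 7.68, 7.91 and 7.28 in the CD4 arrays (difference 1.55 ± 0.19, adjusted p = 7.57e-05). The cathepsins Ctsw (1.26 ± 0.11) and Ctsc (0.60 ± 0.09), the second of which activates granzymes, were higher in CD8 cells, as were Serpinb6b (1.13 ± 0.15) and the granule transport gene Rab27a (0.35 ± 0.08). Srgn, the core protein of granule proteoglycan, was higher in CD4 cells (difference -0.60 ± 0.09, adjusted p = 0.00054). The calls of Stx11, Unc13d and Tnfsf10 toward CD4 were lost with single arrays left out, Stx11 (adjusted p from 0.0567 to 0.133 without CD8 control replicates B or C or CD4 control replicates A or C), Unc13d (adjusted p from 0.0501 to 0.143 with any 1 control array left out) and Tnfsf10 (adjusted p from 0.0613 to 0.138 without CD8 control replicates A or B or CD4 control replicates A or B). Fasl did not pass (difference 0.39 ± 0.17, adjusted p = 0.132). In the granzyme run on chromosome 14, Gzmc and Gzmd were near the threshold on the CD4 side (adjusted p = 0.0545 and 0.0523). The difference of Gzmd ran from -2.75 to -1.07 with 1 control array left out, and it passed without CD8 control replicate B (adjusted p = 0.00105) or CD4 control replicate C (adjusted p = 0.0483). The neighbours Gzmf, Gzmn, Ctsg and Mcpt8 did not pass.

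**Figure D3:**
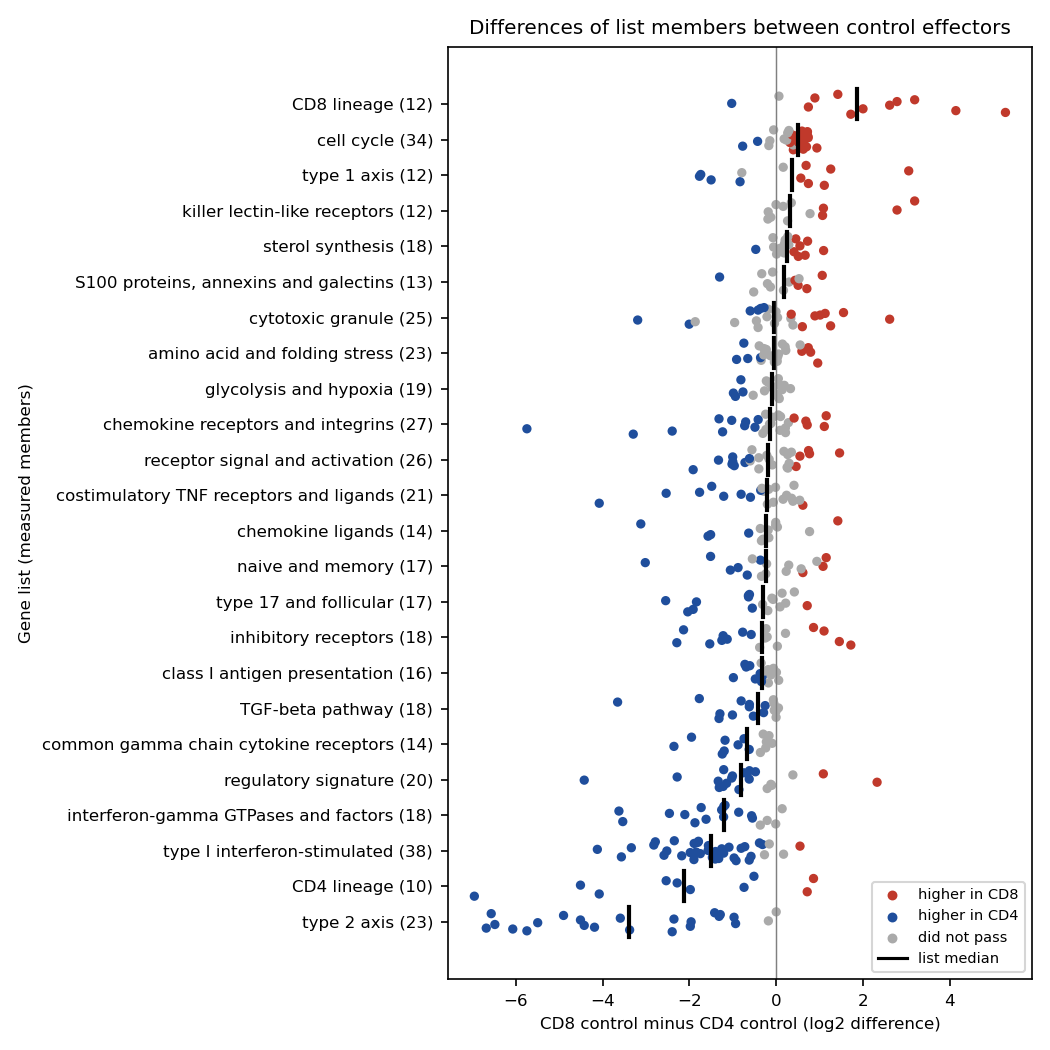
CD8 minus CD4 log2 difference (x axis) of each measured member of 24 gene lists (y axis, number of members in brackets), red where higher in CD8, blue where higher in CD4, grey where the gene did not pass, with a black bar at the list median. The type 2 list lies farthest to the left with a median of -3.38 and the CD8 lineage list farthest to the right with 1.86.

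Killer lectin-like receptors lay on the CD8 side where they passed. Of 12 measured genes 4 were higher in CD8 and none in CD4 cells. Beside Klrk1 and Klrd1 these were Klre1 (difference 1.09 ± 0.17, adjusted p = 0.00051) and Klrc1, the inhibitory partner of CD94 (difference 1.07 ± 0.27, adjusted p = 0.0122). Klrc1 lost its call with single arrays left out (adjusted p from 0.0549 to 0.058 without CD8 control replicate B or CD4 control replicate C). Klrg1, a marker of short-lived effector cells, lay under the median gene at 5.19 ± 0.14 in CD8 and 5.02 ± 0.36 in CD4 cells and did not pass.

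Inhibitory receptors split by member. Of 18 genes 4 were higher in CD8 and 8 in CD4 cells. Pdcd1, which encodes PD-1, was at 8.79, 8.77 and 8.94 in the CD8 arrays and 7.83, 7.53 and 7.84 in the CD4 arrays (difference 1.10 ± 0.12, adjusted p = 3.7e-05). Cd160 (difference 1.72 ± 0.19, adjusted p = 3.11e-05) and the SLAM family receptor Cd244a (difference 1.46 ± 0.25, adjusted p = 0.00115) were on the same side. In CD4 cells the PD-1 ligand Pdcd1lg2 was higher, at 5.29, 5.59 and 5.15 in the CD8 arrays and 7.77, 6.92 and 7.74 in the CD4 arrays (difference -2.13 ± 0.19, adjusted p = 5.44e-06), with Cd200r1 (-2.29 ± 0.24), its ligand Cd200 (-1.53 ± 0.29), the second PD-1 ligand Cd274 (-1.25 ± 0.13) and Havcr2, the gene of TIM-3 (-0.57 ± 0.12). The receptors Ctla4, Lag3 and Tigit did not pass (adjusted p = 0.424, 0.505 and 0.38) and lay above 9 in both groups.

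Of 21 costimulatory receptors and ligands of the TNF family, 8 were higher in CD4 and 1 in CD8 cells. Tnfrsf4, the gene of OX40, was at 8.92, 8.44 and 8.97 in the CD8 arrays and 11.32, 11.22 and 11.40 in the CD4 arrays (difference -2.53 ± 0.15, adjusted p = 1.35e-07). Tnfrsf8, the gene of CD30, was at 9.92, 10.17 and 9.24 in the CD8 arrays and 11.57, 11.34 and 11.71 in the CD4 arrays (difference -1.76 ± 0.22, adjusted p = 7.6e-05), and Tnfrsf18, the gene of GITR, at 10.58, 10.22 and 10.48 in the CD8 arrays and 11.67, 11.63 and 11.61 in the CD4 arrays (difference -1.21 ± 0.13, adjusted p = 2.75e-05). The CD4 arrays of all 3 stood above the CD8 arrays. Cd27 was the 1 gene higher in CD8 cells (difference 0.62 ± 0.15, adjusted p = 0.00832), and without CD8 control replicate C 3 genes passed on that side. Tnfrsf9, the gene of 4-1BB, did not pass (difference -0.29 ± 0.18, adjusted p = 0.332).

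Most listed genes that mark regulatory T cells, but not Foxp3 or Ctla4, were also higher in these Foxp3-negative CD4 cells than in CD8 cells. Of 20 measured genes 14 were higher in CD4 and 2 in CD8 cells, with a median of -0.80. The 4 that did not pass included Foxp3, Ctla4 (difference -0.21, adjusted p = 0.424) and Nrp1 (difference 0.39, adjusted p = 0.078). Il10, the first gene below, also stands in the type 2 list. Il10 was at 5.89, 6.17 and 5.70 in the CD8 arrays and 10.30, 10.30 and 10.43 in the CD4 arrays (difference -4.42 ± 0.30, adjusted p = 4.93e-07). Izumo1r, the folate receptor 4 gene (-2.28 ± 0.12), the Ikaros family factor Ikzf4 (-1.33 ± 0.11), the IL-35 chain Ebi3 (-1.31 ± 0.13) and the ATP-hydrolysing Entpd1 (-1.22 ± 0.12) stood on the CD4 side. The other adenosine enzyme, Nt5e, which makes adenosine from AMP, was higher in CD8 cells, at 7.53, 7.29 and 8.19 in the CD8 arrays and 6.55, 6.69 and 6.52 in the CD4 arrays (difference 1.09 ± 0.17, adjusted p = 0.000525). Ikzf2 was the second gene on that side.

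The TGF-β pathway had 11 of 18 genes higher in CD4 cells and none in CD8 cells, with a median of -0.41, and 9 to 10 with 1 control array left out. The ligand Tgfb3 was at 5.74, 5.32 and 6.35 in the CD8 arrays and 9.12, 9.60 and 9.66 in the CD4 arrays (difference -3.65 ± 0.24, adjusted p = 4.08e-07), and Tgfb1 at 11.01, 11.04 and 10.69 in the CD8 arrays and 11.51, 11.52 and 11.55 in the CD4 arrays (difference -0.62 ± 0.10, adjusted p = 0.000643). Of the receptors, Tgfbr1 (-0.81 ± 0.12) and the coreceptor Tgfbr3 (-1.77 ± 0.15) passed and Tgfbr2 did not (difference -0.06 ± 0.11, adjusted p = 0.775). The latent TGF-β carriers and activators Lrrc32 (-1.01 ± 0.20) and Itgav (-1.32 ± 0.09) were higher in CD4 cells. The signal transducers Smad2, Smad3, Smad4 and Smad7 did not pass and differed by no more than 0.05 in size. Skil (adjusted p from 0.0702 to 0.118 without CD8 control replicates B or C or CD4 control replicates A, B or C) and Smurf2 (adjusted p from 0.0573 to 0.177 with any 1 control array left out) lost their calls with single arrays left out.

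Receptors of the common γ chain and their feedback genes passed only on the CD4 side, 8 of 14. Il2ra, the CD25 chain that was stained in the sort, was at 12.40, 12.36 and 12.08 in the CD8 arrays and 12.92, 12.82 and 12.97 in the CD4 arrays (difference -0.62 ± 0.10, adjusted p = 0.000454). Il21r (-1.20 ± 0.08) and Il7r (-0.88 ± 0.22) were higher in CD4 cells too. The suppressors of cytokine signalling Socs3 (-1.95 ± 0.11), Socs1 (-1.18 ± 0.15), Socs2 (-0.74 ± 0.15) and Cish (-1.24 ± 0.17) stood with them. Il2rb, at 12.28 ± 0.26 and 12.52 ± 0.06, and the transducers Stat5a and Stat5b did not pass. Stat5b passed toward CD4 without CD8 control replicate C (adjusted p = 0.0175).

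Type 17 and follicular helper genes gave 8 of 17 higher in CD4 and 1, Cxcr5, in CD8 cells. Il21, a cytokine of follicular helper cells, was at 4.59, 4.33 and 4.08 in the CD8 arrays and 6.92, 6.52 and 7.19 in the CD4 arrays (difference -2.54 ± 0.18, adjusted p = 6.64e-07), and the aryl hydrocarbon receptor Ahr at 6.53, 5.67 and 6.29 in the CD8 arrays and 8.32, 8.21 and 8.06 in the CD4 arrays (difference -2.04 ± 0.18, adjusted p = 5.98e-06). Il17a, Il17f and Il22 did not pass and lay near or under the median gene in both groups. Bcl6 (adjusted p from 0.0523 to 0.0755 without CD8 control replicates A or B or CD4 control replicates B or C) and Il6st (adjusted p from 0.0808 to 0.102 without CD8 control replicates A or B or CD4 control replicate C) lost their calls with single arrays left out, and without CD8 control replicates A or C or any 1 CD4 array no gene of this list was higher in CD8 cells.

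Immediate genes of the T cell receptor signal went both ways, 5 of 26 higher in CD8 and 8 in CD4 cells. The orphan nuclear receptor Nr4a3 was at 7.31, 7.49 and 7.45 in the CD8 arrays and 6.10, 6.14 and 5.62 in the CD4 arrays (difference 1.46 ± 0.15, adjusted p = 1.43e-05), with Nr4a2 (0.77 ± 0.15) and Myc (0.55 ± 0.11) on the same side. Nr4a1 did not pass (difference 0.27 ± 0.18, adjusted p = 0.359). The AP-1 family gene Batf was at 8.11, 8.28 and 8.02 in the CD8 arrays and 10.05, 9.95 and 10.15 in the CD4 arrays (difference -1.91 ± 0.13, adjusted p = 5.32e-07), with Fosl2 (-1.33 ± 0.20), Junb (-1.0 ± 0.12), Irf4 (-0.61 ± 0.14), Egr2 (-0.72 ± 0.15) and Egr3 (-1.0 ± 0.15) higher in CD4 cells. The brakes of the MAP kinase path were divided, Dusp4 (-0.96 ± 0.15) and Dusp6 (-1.02 ± 0.14) toward CD4 and Dusp2 (0.46 ± 0.10) and Spry2 (0.75 ± 0.15) toward CD8.

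Cell cycle genes were higher in CD8 cells by small amounts. Of 34 measured genes 24 were higher in CD8 and 2 in CD4 cells, with a median difference of 0.50 and none at 2-fold. The list's median level was 10.58, 10.64 and 10.34 in the CD8 arrays and 10.13, 9.93 and 9.94 in the CD4 arrays, without overlap. With 1 control array left out, 19 to 26 genes passed toward CD8.

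The pattern covered replication and division genes. The mitotic checkpoint kinase Bub1 was at 9.44, 9.54 and 9.55 in the CD8 arrays and 8.60, 8.49 and 8.62 in the CD4 arrays (difference 0.94 ± 0.11, adjusted p = 3.99e-05), the proliferation marker Mki67 at 11.96, 11.95 and 11.97 in the CD8 arrays and 11.41, 11.28 and 11.38 in the CD4 arrays (difference 0.60 ± 0.09, adjusted p = 0.000294) and the replication helicase gene Mcm3 at 11.13, 11.15 and 10.85 in the CD8 arrays and 10.45, 10.22 and 10.26 in the CD4 arrays (difference 0.73 ± 0.10, adjusted p = 0.000246). In each of these genes all CD8 arrays lay above all CD4 arrays. The ribonucleotide reductase genes Rrm1 (0.72 ± 0.11) and Rrm2 (0.59 ± 0.13) and the cyclins Ccna2 (0.62 ± 0.10) and Ccnb2 (0.70 ± 0.09) did the same. The 2 genes higher in CD4 cells were the early cyclin Ccnd2 (difference -0.77 ± 0.11, adjusted p = 0.000321) and the cyclin kinase inhibitor Cdkn1a (difference -0.43 ± 0.10, adjusted p = 0.00799). Pcna, Top2a, Ccne1, E2f1 and Tyms were among the 8 that did not pass. Without CD8 control replicate C, Pcna (adjusted p = 0.00992) and Ccne1 (adjusted p = 0.002) passed toward CD8. Pcna also passed toward CD8 in settings that kept all control arrays. Its adjusted p was 0.0124 with a variance trend, 0.0215 over genes above the median level and 0.0347 after centring. It was 0.028 with quantile scaling and 0.0471 with the replicate block. Calls of Cdk1, Cdc6, Mcm2, Mcm6 and Aurka were lost with single arrays left out, Cdk1 (adjusted p from 0.147 to 0.167 without CD8 control replicates A or B or CD4 control replicates B or C), Cdc6 (adjusted p from 0.0624 to 0.0789 without CD8 control replicates A or B or CD4 control replicates B or C), Mcm2 (adjusted p from 0.0749 to 0.116 without CD8 control replicates A or B or CD4 control replicates B or C), Mcm6 (adjusted p from 0.051 to 0.0887 without CD8 control replicates A or B or CD4 control replicate B) and Aurka (adjusted p from 0.0501 to 0.0564 without CD8 control replicates A or B or CD4 control replicates B or C).

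**Figure D4:**
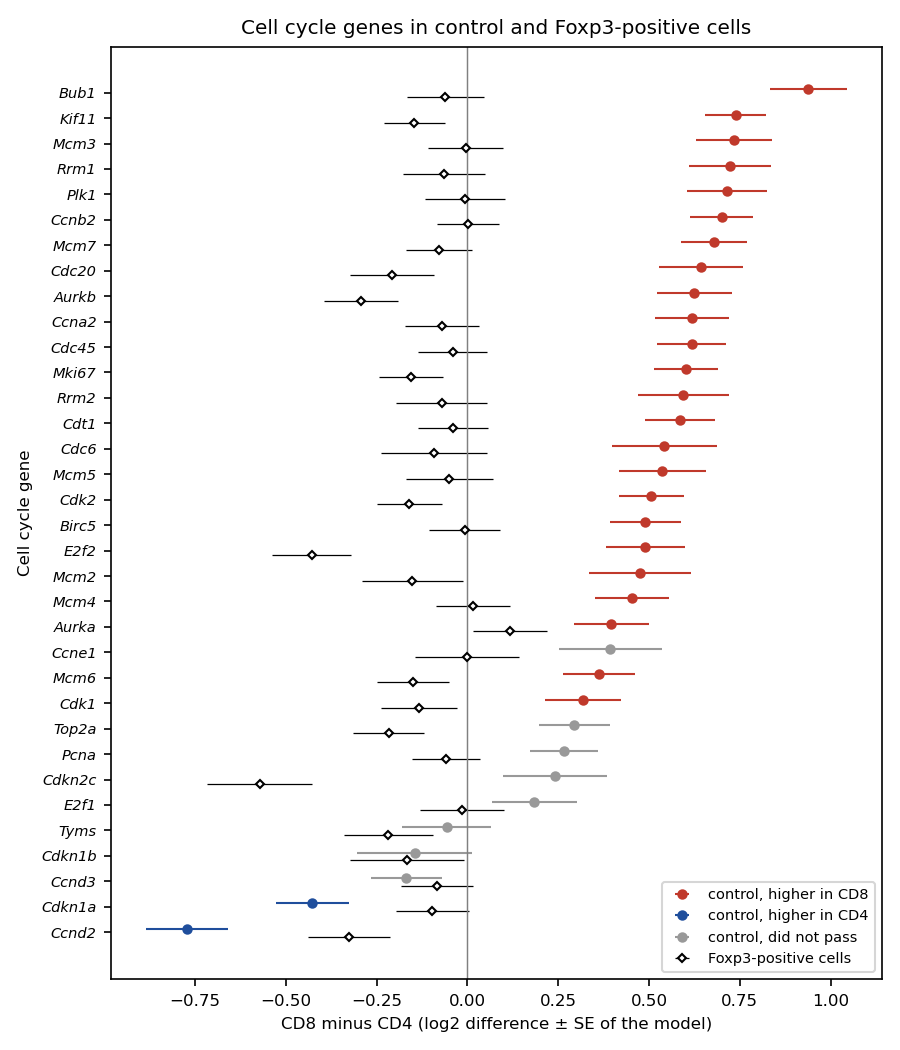
CD8 minus CD4 log2 difference (x axis) with the standard error of the model for 34 cell cycle genes (y axis), in control cells (filled, red higher in CD8, blue higher in CD4, grey not passed) and in Foxp3-positive cells (open diamonds). The 24 red points lie to the right of 0 up to 0.94, and the open diamonds have a median of -0.08.

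Metabolic genes differed in part. Sterol synthesis had 7 of 18 genes higher in CD8 cells and 1, Hsd17b7, in CD4 cells. Hmgcs1, the synthase at the start of the path, was at 11.33, 11.13 and 11.82 in the CD8 arrays and 10.22, 10.30 and 10.49 in the CD4 arrays (difference 1.09 ± 0.17, adjusted p = 0.000441), and Dhcr7 (0.67 ± 0.12), Pmvk (0.72 ± 0.16) and Cyp51 (0.51 ± 0.12) were on the same side. Without CD4 control replicate B 4 passed toward CD8, and Sqle (adjusted p = 0.0642 without CD4 control replicate B) and Msmo1 (adjusted p = 0.0541 without CD4 control replicate B) were among those lost. Fdps (adjusted p from 0.0597 to 0.161 with any 1 control array left out) and Hsd17b7 (adjusted p from 0.0536 to 0.15 without CD8 control replicates A, B or C or CD4 control replicates B or C) lost their calls in more of these fits.

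The serine and asparagine enzymes Asns (difference 0.96 ± 0.11, adjusted p = 5.13e-05), Phgdh (0.80 ± 0.16), Shmt2 (0.74 ± 0.14) and Psat1 (0.59 ± 0.12) were the 4 of 23 amino acid and folding stress genes higher in CD8 cells. The 4 higher in CD4 cells belonged to the folding stress of the endoplasmic reticulum, Xbp1 (difference -0.74 ± 0.11, adjusted p = 0.000259), Ddit3 (-0.91 ± 0.11), Edem1 (-0.36 ± 0.09) and Dnajb9 (-0.65 ± 0.19). Of the 23 genes 34.8% passed, beside 20.9% of all genes, and the list median was -0.04. The other 15 did not pass, among them the folding gene Hsp90b1 (difference -0.13 ± 0.10, adjusted p = 0.452). These counts therefore describe the named genes and no shift of either group of genes as a whole. Dnajb9 lost its call with single arrays left out (adjusted p from 0.0686 to 0.102 without CD8 control replicate C or CD4 control replicates A or B), and Edem1 with the mean of its clusters (adjusted p = 0.0901). Of 19 glycolysis and hypoxia genes 4 passed (21.1%), near the 20.9% of all genes, and all 4 were higher in CD4 cells. They were the hypoxia factor Hif1a (difference -0.98 ± 0.13, adjusted p = 0.000163), Egln3 (-0.94 ± 0.19), hexokinase 1 (Hk1) (-0.76 ± 0.12) and the glucose transporter Slc2a3 (-0.81 ± 0.26). Slc2a3 lost its call with single arrays left out (adjusted p from 0.052 to 0.14 without CD8 control replicates B or C or CD4 control replicates A, B or C). Among the clusters with Hif1a as their only symbol, the call rested on the brighter, since the other differed by -0.42 and did not pass. A cluster that Hif1a shared with S100a11-ps, fitted apart, differed by -0.85 (adjusted p = 0.000335). The enzymes Gapdh, Pgk1, Tpi1, Pkm and Ldha did not pass.

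Homing and adhesion genes told the lineages apart. Of 27 chemokine receptors and integrins 10 were higher in CD4 and 5 in CD8 cells. Ccr8, a receptor of type 2 and regulatory cells, was at 3.81, 4.43 and 4.00 in the CD8 arrays and 9.75, 9.86 and 9.85 in the CD4 arrays (difference -5.74 ± 0.14, adjusted p = 4.78e-11). Ccr4 was at 8.14, 8.11 and 7.40 in the CD8 arrays and 10.27, 10.13 and 10.44 in the CD4 arrays (difference -2.39 ± 0.18, adjusted p = 1.63e-06) and Ccr1 at 4.52, 4.46 and 4.57 in the CD8 arrays and 7.85, 7.95 and 7.63 in the CD4 arrays (difference -3.29 ± 0.16, adjusted p = 2.93e-08). None of these arrays overlapped. In CD8 cells the exit receptor S1pr1 was higher, at 9.52, 9.21 and 9.79 in the CD8 arrays and 8.28, 8.38 and 8.40 in the CD4 arrays (difference 1.15 ± 0.19, adjusted p = 0.000667), together with Cxcr3, Cxcr5 and the integrin chains Itga4 (0.69 ± 0.17) and Itgb1 (0.41 ± 0.12). Itga4 (adjusted p from 0.0525 to 0.0538 without CD8 control replicate C or CD4 control replicate B), Itgb1 (adjusted p from 0.0512 to 0.103 without CD8 control replicates A or B or CD4 control replicates B or C) and, on the CD4 side, Itga2 (adjusted p from 0.0567 to 0.129 without CD8 control replicates A or B or CD4 control replicates A, B or C) lost their calls with single arrays left out, and the list then had 2 to 4 genes toward CD8. There were 2 without CD4 replicate B and 3 without CD8 replicate A, CD8 replicate C or CD4 replicate C. Ccr7 and the gut receptors Itgb7, Ccr9 and Gpr15 did not pass.

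Among 14 chemokine ligands 4 were higher in CD4 and 1, Xcl1, in CD8 cells. Ccl3, an inflammatory chemokine of activated T cells, was at 7.92, 8.10 and 7.83 in the CD8 arrays and 9.82, 9.48 and 9.08 in the CD4 arrays (difference -1.51 ± 0.23, adjusted p = 0.000384), with Cxcl3 (-3.12 ± 0.30), Ccl22 and Ccl4 (-0.63 ± 0.16) beside it. Ccl4 lost its call in a pair of fits (adjusted p from 0.0526 to 0.0531 without CD8 control replicate B or CD4 control replicate A), and Ccl5 did not pass (difference 0.77 ± 0.26, adjusted p = 0.0564). Ccl5 passed toward CD8 in 4 other settings, with adjusted p of 0.0129 for the 6 control arrays alone, 0.028 with a variance trend, 0.0277 over genes above the median level and 0.0353 after centring. Among 17 genes of naive and memory cells 6 were higher in CD4 and 3 in CD8 cells, and Ly6c1 differed most (difference -3.01 ± 0.17, adjusted p = 1.3e-07). Klf2, which drives S1pr1, was at 8.86, 8.35 and 8.67 in the CD8 arrays and 7.62, 7.50 and 7.52 in the CD4 arrays (difference 1.08 ± 0.17, adjusted p = 0.000568), while Id2 (difference -1.05 ± 0.16, adjusted p = 0.000348), Satb1 (difference -1.51 ± 0.15, adjusted p = 1.44e-05) and the survival gene Bcl2 (difference -0.67 ± 0.10, adjusted p = 0.00028) were higher in CD4 cells. Klf2 and S1pr1, a factor and its target gene in T cell exit from lymphoid tissue, were both on the CD8 side. Myb lost its call toward CD4 with single arrays left out (adjusted p from 0.0532 to 0.111 without CD8 control replicates A, B or C or CD4 control replicates A or C). Of 13 S100, annexin and galectin genes 4 were higher in CD8 cells and 1, S100a13, in CD4 cells (difference -1.30 ± 0.10, adjusted p = 1.9e-06). The largest on the CD8 side were S100a4 (1.06 ± 0.16), Anxa4 (0.71 ± 0.16) and Anxa6 (0.51 ± 0.11).

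The lineage difference of these controls could be set against that of the Foxp3-positive cells, which come from other arrays. There 1044 genes (4.71%) differed between CD8 and CD4 cells, 534 (2.41%) toward CD8 and 510 (2.3%) toward CD4. Without CD8 Foxp3-positive replicate B the count fell to 674, without CD4 Foxp3-positive replicate A to 687, and without CD4 Foxp3-positive replicate B the count toward CD8 fell to 355. Of the genes called with all arrays, 526 were called in both, or 11.3% of the control calls and 50.4% of the Foxp3-positive calls, 368 of them with the same sign and 158 with opposite signs. The difference itself was larger or smaller in controls for 2993 genes (13.5%) by the interaction term of the limma model, 1659 (7.48%) toward CD8 and 1334 (6.01%) toward CD4. Of the 652 control differences of at least 2-fold, 139 were called with the same sign in Foxp3-positive cells, 57 of the 192 toward CD8 and 82 of the 460 toward CD4. The interaction term passed for 554 of the 652. These genes were chosen by the control difference, which the term contains, so this share cannot be read beside the 13.5% of all genes.

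By their medians, the type 2 genes, the interferon genes and the cell cycle genes differed more between the lineages in controls than in Foxp3-positive cells. These lists were chosen with earlier results of these data known, and the interaction term contains the control difference. Over all genes the term passed toward CD4 for 6.01% and toward CD8 for 7.48%. For the reasons given, the list counts below are partly set by the choice of lists. Of 23 type 2 genes the interaction passed toward CD4 in controls for 19 and toward CD8 for 1, and their median difference was -3.38 in controls and -0.19 in Foxp3-positive cells. Il13 differed by 0.11 ± 0.15 in Foxp3-positive cells, where both groups lay under the median gene (interaction -6.59 ± 0.21, adjusted p = 2.57e-09). In Foxp3-positive cells 9 of the 23 type 2 genes were still higher in CD4 cells, beside 2.3% of all genes, and 1, Il10, was higher in CD8 cells. Among the 9 were Ecm1 (-2.30 ± 0.14, adjusted p = 1.96e-06), Penk (-2.02 ± 0.15), Ccr8 (-2.09 ± 0.14), Cyp11a1 (-1.24 ± 0.11) and Maf (-0.71 ± 0.15). For the type I interferon list the interaction passed toward CD4 for 32 of 38 genes and toward CD8 for 1, and the Foxp3-positive median was 0.10. For the interferon-γ list it passed toward CD4 for 13 of 18 genes, with a Foxp3-positive median of 0.09.

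For the cell cycle list the interaction term passed toward CD8 for 21 of 34 genes, beside 7.48% of all genes. The Foxp3-positive median was -0.08. This list too was chosen with earlier results known, and the term contains the control difference. For the CD8 lineage list the median was 1.86 in controls and 1.80 in Foxp3-positive cells, with interaction terms passing for 1 gene toward CD8 and 3 toward CD4, or 4 of 12 genes beside 13.5% of all genes. Cd8b1 differed by 4.14 in controls and 5.80 ± 0.14 in Foxp3-positive cells (interaction -1.66 ± 0.19, adjusted p = 0.000127), and Runx3 by 0.06 and 1.24 ± 0.17 (interaction -1.18 ± 0.24, adjusted p = 0.00647). The change in Cd8b1 lay mostly in the CD4 arrays, with means of 7.72 in controls and 6.17 in Foxp3-positive cells. In the CD8 arrays these means were 11.86 and 11.97. Klrk1 differed by 4.13 ± 0.30 in Foxp3-positive cells and Cd8a by 5.01 ± 0.30, and their interaction terms did not pass. Gzmk, by contrast, differed by 0.24 ± 0.20 there (adjusted p = 0.626, interaction 2.37 ± 0.28, adjusted p = 0.000156). Itgae had opposite signs, -1.02 in controls and 1.03 ± 0.12 in Foxp3-positive cells (adjusted p = 1.12e-05 for the interaction).

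**Figure D5:**
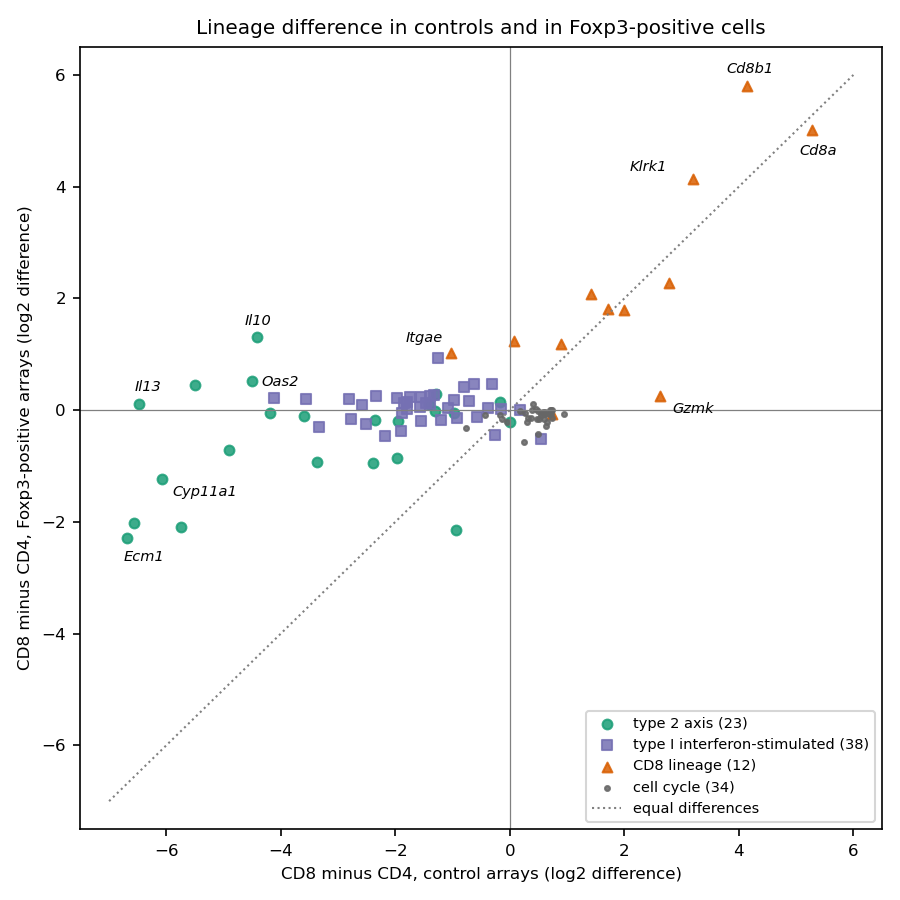
CD8 minus CD4 log2 difference in control arrays (x axis) against that in Foxp3-positive arrays (y axis) for the type 2, type I interferon, CD8 lineage and cell cycle lists, 1 point per gene, with a dotted line of equal differences. Cd8a and Klrk1 lie near the dotted line and Gzmk and Itgae away from it, while the type 2 genes reach -6.68 on the x axis and the interferon genes -4.12 with y values of -2.30 to 1.30 and of -0.51 to 0.94.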

How the data were processed

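Gene expression in 12 mouse T cell samples, 3 per group, was measured on 1-colour Affymetrix arrays of whole transcripts, from 250 ng of RNA per sample. The authors deposited 1 table of log2 values. The submitters' processing notes name RMA and Affymetrix Expression Console, and the settings and annotation build were not given in the sources used here. Precision is limited by the number of arrays, whose medians lay between 5.23 and 5.33.

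Of 34365 probe clusters, 23521 carried 1 gene symbol by the platform annotation, 1814 several and 9030 none listed here. The brightest cluster by its mean over 12 arrays stood for each of 22180 genes, of which 1082 had more than 1. Group means were fitted with limma 3.58.1 in R 4.3.3 (lmFit and eBayes, 8 residual degrees of freedom), two-sided, with Benjamini-Hochberg adjustment over all genes at 0.05. All 12 arrays shared 1 estimate of the spread, also where 1 array was left out. The fit was tested on simulated data.

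Members and gene lists were chosen with earlier results of these data known. Of 531 listed genes, 486 were measured, and some stand in more than 1 list (536 entries). Genes named with values were drawn mainly from the 14 largest in each direction, and from the 4 largest that passed and the brightest that did not in each list. Not all of these are named, and further list members were picked after values were seen, to show each list's range. The 14 largest had passed, without overlap of the arrays and with a higher group mean at or above the median gene level. Predicted genes, clone names, small RNAs and immunoglobulin and T cell receptor segments were passed over. Alternatives were each array left out, the 6 control arrays alone, a mean-variance trend, robust variances, other choices and means of clusters, genes above the median level, centring, quantile scaling and replicate letters as a block.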

Additional observations from a re-analysis of the deposited data

Results flagged for a closer look

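The lineage difference was not the same in control and in Foxp3-positive cells for 2993 of 22180 genes, by the interaction term of the limma model at an adjusted p under 0.05. The values that follow are the control difference minus the Foxp3-positive difference, CD8 minus CD4, on the log2 scale. Farther toward CD8 in controls were Cmah by 3.17 (adjusted p = 1.12e-05), Galnt3 by 2.63 (adjusted p = 1.98e-06), Il18r1 by 2.43 (adjusted p = 2.4e-05), Gzmk by 2.37 (adjusted p = 0.000156) and the sialyltransferase gene St8sia6 by 2.36 (adjusted p = 0.000139). Farther toward CD4 in controls were Il13 at -6.59 (adjusted p = 2.57e-09), Il24 at -5.94 (adjusted p = 6.89e-07), Il10 at -5.72 (adjusted p = 3.61e-06), Tgfb3 at -5.26 (adjusted p = 1.27e-06) and Il4 at -5.02 (adjusted p = 4.56e-08). Il13 differed by -6.48 in controls and 0.11 ± 0.15 in Foxp3-positive cells. Tgfb3 differed by -3.65 in controls and by 1.61 ± 0.24 in Foxp3-positive cells, so that its sign turned. St8sia6 stood at 5.27, 5.20 and 5.41 in the CD8 arrays and 5.35, 5.87 and 5.64 in the CD4 arrays, with a control difference of -0.33 and a Foxp3-positive difference of -2.68 ± 0.20.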

How the results depend on the processing

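The control comparison gave 4636 genes. Other settings with all control arrays gave from 3739 genes, with the 6 control arrays alone, to 5100, with a trend of the variance on the level. Leaving out 1 array gave 3588 to 4573 genes in all, 1965 to 2702 toward CD8, 1599 to 1871 toward CD4, and 184 to 220 and 459 to 487 at 2-fold. The interaction gave 2253 to 3158 genes in this way, 1149 to 1833 toward CD8 and 1063 to 1325 toward CD4. Foxp3-positive cells gave 674 to 969 genes, 341 to 499 toward CD8 and 333 to 470 toward CD4, lowest without CD8 Foxp3-positive replicate B (674, 341 and 333). They gave 687 in all and 347 toward CD8 without CD4 Foxp3-positive replicate A, and 355 toward CD8 without CD4 Foxp3-positive replicate B, against 534. The causes were not tested. Of 145 genes picked by rule, not all of them named here, 106 kept a call of the same sign in all 15 settings and 25 had none in any. Ighm turned to -0.07 with the mean of its 7 clusters in place of the brightest, and Bend4 was not called with its first cluster.

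Replicate letters pair the samples by name, and the labels do not say what the letters stand for. Deviations from the group means correlated at 0.021 to 0.094 for same-lettered control arrays and at -0.114 to 0.041 for different letters. In Foxp3-positive arrays these values were 0.039 to 0.099 and -0.14 to 0.064. Same letters thus correlated weakly and positively, and not every array correlated best with its own letter. With the letters as a replicate block, the control comparison gave 4595 genes (2671 toward CD8 and 1924 toward CD4), the interaction 2921 and the Foxp3-positive comparison 989.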

Other observations

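Genes outside the lists fell into a few groups, chosen after their values were seen, so they are given as differences with the standard error of the model and no p. Enzymes that build glycans lay on both sides. St3gal1, which adds sialic acid to O-linked glycans, stood at 8.12, 7.92 and 8.07 in the CD8 arrays and 10.30, 10.22 and 10.43 in the CD4 arrays (-2.28 ± 0.11). St8sia1, which makes the ganglioside GD3, was also higher in the CD4 arrays (-2.19 ± 0.11). St3gal6 (1.36 ± 0.15) and B3gnt5 (1.32 ± 0.11) were higher in the CD8 arrays, like Cmah and Galnt3.

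Some secreted and matrix genes with large differences toward CD4 were picked for their values, so they show nothing of such genes as a class. The matrix protease gene Mmp9 was at 5.46, 5.59 and 5.47 in the CD8 arrays and 9.29, 9.88 and 9.95 in the CD4 arrays (-4.20 ± 0.15), and Lif, a cytokine of the IL-6 family, at 6.55, 6.49 and 5.62 in the CD8 arrays and 10.02, 9.74 and 10.03 in the CD4 arrays (-3.71 ± 0.23). The arrays did not overlap for either gene. The crosslinking enzyme Tgm2 (-3.76 ± 0.33), the laminin chain Lama5 (-3.16 ± 0.11), protein S (Pros1) (-2.70 ± 0.16), the B cell factor BAFF (Tnfsf13b) (-2.65 ± 0.18) and hepatocyte growth factor (Hgf) (-2.51 ± 0.15) had the same sign.

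The same holds for a few receptors of lipids, short fatty acids and purines. Ffar2, a receptor of short-chain fatty acids, was at 4.62, 4.81 and 4.49 in the CD8 arrays and 8.51, 8.76 and 8.85 in the CD4 arrays (-4.06 ± 0.11), and P2rx7, an ATP-gated channel, at 7.08, 6.54 and 7.40 in the CD8 arrays and 10.64, 10.80 and 10.42 in the CD4 arrays (-3.61 ± 0.18). In both genes all CD4 arrays stood above all CD8 arrays. The leukotriene receptors Cysltr1 (-3.10 ± 0.19) and Cysltr2 (-2.47 ± 0.13) and the prostacyclin receptor Ptgir (-2.13 ± 0.17) followed. So did surface genes better known from myeloid cells, Gpnmb (-2.55 ± 0.23), Lilrb4a (-2.20 ± 0.17), Itgb3 (-1.96 ± 0.32) and Fcgr3 (-1.54 ± 0.15). Of the 13 macrophage and monocyte markers 2 lay above the median gene in each group, Cd68 at 8.56 ± 0.33 in CD8 and 8.57 ± 0.08 in CD4 cells and Apoe, and Csf1r, Lyz2 and Cd14 were among those under it. Fcer1g, which myeloid cells also express, was at 7.82 ± 0.83 and 8.17 ± 0.94, and the part of such cells was not tested. The paralogs Serpinb1a (2.24 ± 0.27) and Serpinb1b (1.57 ± 0.15) were higher in the CD8 arrays.

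Clusters with several symbols were fitted apart. The cluster of Mir155 and its host gene Mir155hg differed by -1.20, that of Cd74 and Mir5107 by -1.76, that of Lilr4b and Lilrb4a by -2.63, and those of Tgtp1 and Tgtp2 by -1.62 and -1.63. The cluster of Cd72 and Tesk1 differed by 1.89.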
